A study of Mus musculus with 6 samples.

Results

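The OAS family is a group of antiviral enzymes and their relatives, and 6 of its mouse genes are described here: Oas1a, Oas1g, Oas2, Oas3, Oasl1 and Oasl2. They were taken by gene symbol from a table of 54532 genes, and all 6 passed the filter on low values. The table holds RNA sequencing values of CD11b-positive cells, which are cells of the myeloid lineage such as neutrophils, monocytes and macrophages, from tibial bone marrow of mice at 12 weeks of age. Of the 6 libraries, 3 are titled Tshr-/- (mice lacking the receptor of thyroid-stimulating hormone) and 3 are titled Tshr+/+ (wild type). A second label calls the genotype of the first group a knockdown, and all 6 libraries carry a label naming osteoclast differentiation as treatment with no time; the labels give no allele, strain or sex. Titles carry numbers from 1 to 3 within a genotype, so each library is read as 1 mouse, and no label says whether the cells were pooled or cultured.

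OAS proteins are sensors of double-stranded RNA, a product of viral replication. Once bound to it, the synthetases Oas1a, Oas1g, Oas2 and Oas3 join ATP into short 2′,5′-linked oligoadenylates, which act as a signal of infection inside the cell. Oas1 proteins have a single synthetase unit, while Oas2 and Oas3 carry repeats of it. The OAS-like proteins end in ubiquitin-like domains; mouse Oasl2 keeps synthetase activity, whereas Oasl1 lacks it and is known in mice to restrain translation of the interferon regulator Irf7. Interferon raises transcription of the family in most cells, and myeloid cells hold a basal level of it.

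The libraries held between 14698126 and 17976477 fragments, and the family members between 201 and 6570 fragments in a library. Itgam, the gene of CD11b itself, stood between 87.4 and 133.6 FPKM (fragments scaled to gene length and library size), and the neutrophil transcript S100a9 between 34947 and 54930 FPKM. Of osteoclast markers, Ctsk lay between 3.3 and 37.4 FPKM and Calcr was listed at 0 in 5 of 6 libraries. The targeted gene did not follow the labels in every library. Tshr had 0.414, 0.297 and 0.00825 FPKM in libraries labelled Tshr-/- 1, 2 and 3, against 0.537, 0.552 and 0.405 FPKM in those labelled Tshr+/+ 1, 2 and 3. These values rest on 40, 25 and 1 fragments, against 55, 55 and 45. The group means, 0.239 ± 0.209 FPKM in the Tshr-/- group against 0.498 ± 0.0811 FPKM in the Tshr+/+ group (SD, n = 3 each), gave p = 0.2 when their labels were permuted exactly and two-sided, and 3 against 3 libraries cannot go under 0.1. Scaled to equal totals (TPM), the means were 0.548 in the Tshr-/- group against 1.17 in the Tshr+/+ group, with p = 0.1 in the same exact test. Near-complete loss of the transcript was thus seen in the library labelled Tshr-/- 3 alone, and every direction given for a genotype is a direction of the labels.

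All family genes lie on chromosome 5 of GRCm38 in 2 clusters. Oasl2 (114896936 to 114912234) and Oasl1 (114923240 to 114937915) are neighbours on the plus strand. Oas2 (120730333 to 120749853), Oas3 (120753098 to 120777661), Oas1g (120876142 to 120887613) and Oas1a (120896256 to 120907521) lie in the second cluster on the minus strand, among other Oas1 copies. RefSeq promoter windows of GRCm38.p6 run from 250 bases before to 50 bases after the gene start. They were at hand for 5 of the 6 genes and are shown as a description. Capitals mark matches to the interferon-stimulated response element, searched as GAAANNGAAA and, on the other strand, TTTCNNTTTC.
Oas1a (chr5:120907476-120907775, minus strand): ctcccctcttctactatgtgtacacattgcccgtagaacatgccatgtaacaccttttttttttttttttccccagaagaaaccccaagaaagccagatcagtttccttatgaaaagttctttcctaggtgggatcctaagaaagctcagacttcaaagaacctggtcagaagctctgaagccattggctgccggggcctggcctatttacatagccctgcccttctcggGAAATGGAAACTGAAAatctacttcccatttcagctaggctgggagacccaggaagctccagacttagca
Oas1g (chr5:120887564-120887863, minus strand): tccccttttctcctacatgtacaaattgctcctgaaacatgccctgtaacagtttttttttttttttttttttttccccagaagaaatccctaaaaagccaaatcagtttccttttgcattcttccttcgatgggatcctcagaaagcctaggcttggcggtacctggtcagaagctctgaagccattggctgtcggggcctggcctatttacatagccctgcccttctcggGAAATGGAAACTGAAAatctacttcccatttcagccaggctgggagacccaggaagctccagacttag
Oas3 (chr5:120777610-120777909, minus strand): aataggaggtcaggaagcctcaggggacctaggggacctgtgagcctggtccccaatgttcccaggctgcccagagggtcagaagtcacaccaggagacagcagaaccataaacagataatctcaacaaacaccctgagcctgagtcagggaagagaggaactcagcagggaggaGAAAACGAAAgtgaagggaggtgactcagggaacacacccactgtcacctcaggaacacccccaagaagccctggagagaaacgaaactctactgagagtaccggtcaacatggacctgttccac
Oasl1 (chr5:114922990-114923289, plus strand): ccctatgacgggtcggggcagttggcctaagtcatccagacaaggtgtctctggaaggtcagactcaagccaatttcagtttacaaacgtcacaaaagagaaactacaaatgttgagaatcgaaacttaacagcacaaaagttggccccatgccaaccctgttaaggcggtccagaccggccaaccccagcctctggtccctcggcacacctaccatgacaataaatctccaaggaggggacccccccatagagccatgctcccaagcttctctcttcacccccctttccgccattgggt
Oasl2 (chr5:114896684-114896983, plus strand): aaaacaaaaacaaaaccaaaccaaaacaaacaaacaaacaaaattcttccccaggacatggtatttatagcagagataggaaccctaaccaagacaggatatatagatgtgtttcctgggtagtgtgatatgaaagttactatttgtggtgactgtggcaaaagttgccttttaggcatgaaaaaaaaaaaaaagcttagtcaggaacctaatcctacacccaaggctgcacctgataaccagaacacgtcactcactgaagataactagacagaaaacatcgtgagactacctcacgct

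The response-element letters were found in 3 of these 5 windows, against 3.44% of 32851 promoter windows of the same length. Oas1a and Oas1g each held a pair of overlapping matches, GAAATGGAAA and GAAACTGAAA, which ended 5 bases before the start in Oas1a and 3 bases before it in Oas1g. Oas3 held GAAAACGAAA, from 75 to 66 bases before the start. The windows of Oas1a and Oas1g were 85.3% identical over their alignment, while every other pair stood between 45.9% and 50.3%. The GAS motif, TTCNNNGAA, which reads the same on both strands, was found once in Oas1a, 98 to 90 bases before the start, against 8.30% of all windows. A match is a stretch of letters and not a measured binding site, and windows without one say only that these letters are not in them. Of the genes without a response-element match, Oasl1 shared the library order of Oas1a, Oas1g and Oas3 and Oasl2 did not, as described further on. A link between these letters and the patterns over libraries was not tested.

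**Figure D1:**
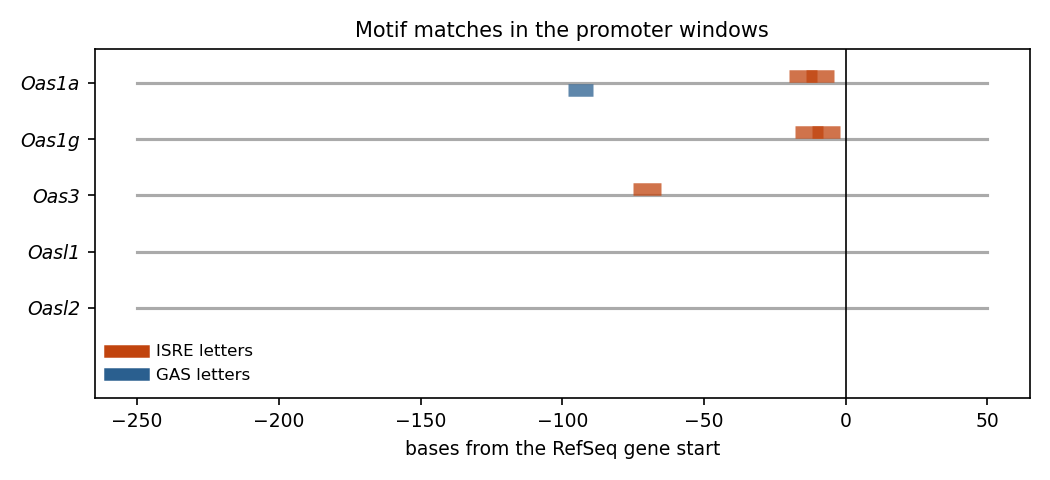
Positions of motif matches along the promoter windows of 5 OAS family genes, in bases from the RefSeq gene start; red bars are matches to the interferon-stimulated response element and blue bars to the GAS motif. The paired matches of Oas1a and Oas1g lie just before the start, that of Oas3 lies 75 to 66 bases before it, and Oasl1 and Oasl2 have none.

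The family was well expressed in these cells. Averaged over the 6 libraries, Oas3 had the highest level at 42.3 FPKM, above 89.5% of all genes tested, followed by Oas1a at 35.4, Oas2 at 34.6, Oasl1 at 24.5, Oasl2 at 19.3 and Oas1g at 11.2 FPKM. FPKM is scaled to gene length, so these levels can be set beside each other within limits. The length is a fixed value per gene, whichever transcripts were present. Oas1a and Oas1g also share much sequence, as described further on. Oas3 exceeded Oas1a in 6 of 6 libraries, by 0.26 ± 0.11 (SD) on the log2 scale. Oas1a and Oas2 could not be ordered: Oas1a was the higher in 2 of 6 libraries, with a mean log2 difference of 0.03 ± 0.19 (SD). Oas2 exceeded Oasl1 in 6 of 6 libraries, but the difference of 0.80 ± 0.87 (SD) was smaller than its spread. Oasl1 and Oasl2 could not be ordered either, since Oasl1 was the higher in 3 of 6 libraries (0.03 ± 1.27, SD), and Oasl2 exceeded Oas1g in 5 of 6 (0.99 ± 1.03, SD).

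The comparison of genotypes asks whether loss of the receptor of thyroid-stimulating hormone alters expression in these cells. All 6 OAS genes had a higher mean in the libraries labelled Tshr-/-, and none passed the test. In FPKM, the groups overlapped for each of the 6. The call used limma on log2(FPKM + 1) with Benjamini-Hochberg adjustment over 10913 genes and a threshold of 0.05, and 0% of those genes passed it. The groups did not overlap for 6.77% of all genes tested (3.23% with Tshr-/- above), against 0 of the 6 members. Positive log2 fold changes were found for 47.1% of all genes tested, and the median was 0.49 over the members and -0.01 over all genes. At an unadjusted p under 0.05 stood 1 of the 6 members, Oas2, against 2.9% of all genes tested (1.43% when counting those higher in Tshr-/-).

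Oas3, the longest of the synthetases, had 57.8, 51.4 and 38.2 FPKM in libraries labelled Tshr-/- 1, 2 and 3, against 31.7, 43.9 and 30.9 FPKM in those labelled Tshr+/+ 1, 2 and 3. The library labelled Tshr-/- 3 lay below Tshr+/+ 2, so the groups overlapped, with means of 49.1 ± 9.98 and 35.5 ± 7.30 FPKM (SD, n = 3 each). The log2 fold change was 0.46 ± 0.20 (SE; 95% interval -0.02 to 0.93; limma adjusted p = 0.9997). Oas2, the family member with the smallest unadjusted p (0.0346), had 49.4, 41.1 and 32.9 FPKM in Tshr-/- 1, 2 and 3, against 22.6, 34.6 and 27.3 FPKM in Tshr+/+ 1, 2 and 3. Here too a single crossing in FPKM, of Tshr-/- 3 below Tshr+/+ 2, kept the groups from separating. The log2 fold change of Oas2 was 0.53 ± 0.20 (SE, 95% interval 0.05 to 1.01, limma adjusted p = 0.9997). The fold changes of Oas2 and Oas3 also moved with single libraries. That of Oas2 was 0.39 without Tshr-/- 1 or without Tshr+/+ 1, but 0.68 without Tshr-/- 3 or without Tshr+/+ 2. That of Oas3 was 0.33 without Tshr-/- 1 and 0.37 without Tshr+/+ 3, but 0.62 without Tshr-/- 3 and 0.61 without Tshr+/+ 2. Both crossings in FPKM depend on the scaling between libraries. Summed over all genes, FPKM was 348454 in Tshr-/- 3 and 450717 in Tshr+/+ 2. Scaled to equal totals (TPM), Tshr-/- 3 lay above Tshr+/+ 2 in Oas2 and in Oas3. The log2 fold changes were then 0.59 for Oas2 and 0.51 for Oas3. Their unadjusted limma p were 0.0093 and 0.011, and neither gene passed the adjusted threshold.

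Of the Oas1 synthetases, Oas1a had 47.1, 40.1 and 31.1 FPKM in Tshr-/- 1, 2 and 3, against 26.5, 42.7 and 24.8 FPKM in Tshr+/+ 1, 2 and 3. Oas1g had 18.0, 16.0 and 6.49 FPKM in Tshr-/- 1, 2 and 3, against 5.04, 17.0 and 4.74 FPKM in Tshr+/+ 1, 2 and 3. In both genes the library labelled Tshr+/+ 2 stood with Tshr-/- 1 and 2; in Oas1g the gap was wide, since the other libraries, Tshr-/- 3 and Tshr+/+ 1 and 3, all lay under 6.5 FPKM. The log2 fold change was 0.35 ± 0.24 (SE; 95% interval -0.23 to 0.92) for Oas1a and 0.65 ± 0.53 (SE; -0.61 to 1.91) for Oas1g, each with a limma adjusted p of 0.9997. Both intervals thus allow a fall as well as a rise. Both fold changes moved with single libraries. That of Oas1a was 0.58 without Tshr+/+ 2, but 0.21 without Tshr-/- 1 and 0.20 without Tshr+/+ 3. That of Oas1g was 1.07 without Tshr-/- 3 and 1.19 without Tshr+/+ 2, but 0.40 without Tshr-/- 1 or without Tshr+/+ 1 and 0.36 without Tshr+/+ 3.

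Oasl1, the relative without synthetase activity, varied most within a genotype. It had 44.7, 40.6 and 9.55 FPKM in libraries labelled Tshr-/- 1, 2 and 3, against 12.8, 32.4 and 7.19 FPKM in those labelled Tshr+/+ 1, 2 and 3. The highest library exceeded the lowest 4.68-fold among the Tshr-/- and 4.50-fold among the Tshr+/+ libraries, whereas the means, 31.6 ± 19.2 and 17.5 ± 13.2 FPKM (SD, n = 3 each), differed 1.81-fold. Its log2 fold change was 0.80 ± 0.70 (SE; 95% interval -0.85 to 2.45; limma adjusted p = 0.9997), and it was 1.48 without Tshr-/- 3 and 1.35 without Tshr+/+ 2, but 0.43 without Tshr-/- 1, 0.49 without Tshr-/- 2 and 0.34 without Tshr+/+ 3. Oasl2, the relative that keeps synthetase activity, ran otherwise. It had 22.1, 19.6 and 24.6 FPKM in Tshr-/- 1, 2 and 3, against 15.4, 13.4 and 20.9 FPKM in Tshr+/+ 1, 2 and 3. Here the libraries numbered 3 were the highest of their genotype, and Tshr+/+ 2 was the lowest of all 6. The log2 fold change was 0.41 ± 0.18 (SE; 95% interval -0.01 to 0.83; limma adjusted p = 0.9997).

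**Figure D2:**
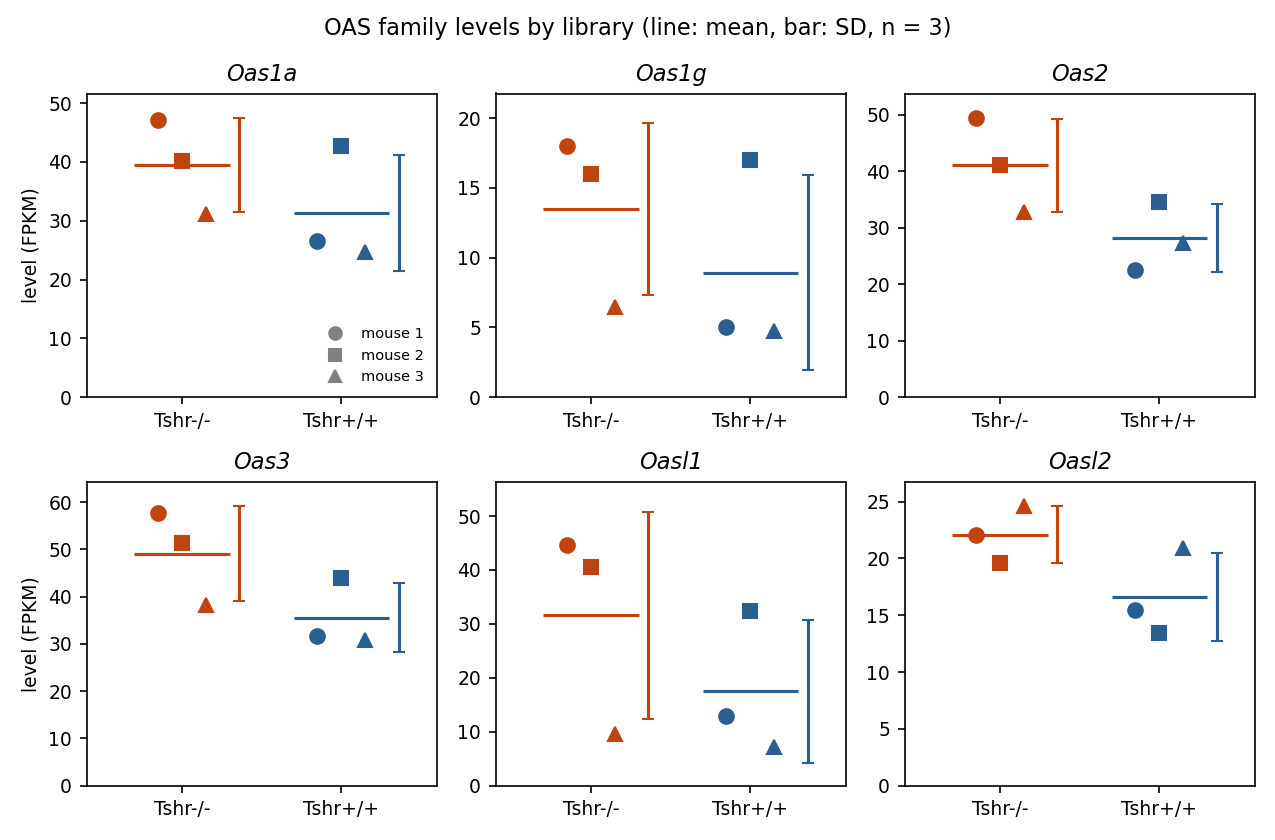
Levels of the 6 OAS genes in FPKM, with Tshr-/- libraries in red at the left and Tshr+/+ libraries in blue at the right of each panel; symbols give the mouse number in the title, horizontal lines the mean and bars the SD (n = 3). In Oas1g and Oasl1 the library Tshr+/+ 2 lies with Tshr-/- 1 and 2, and Tshr-/- 3 lies with the low Tshr+/+ libraries.

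**Figure D3:**
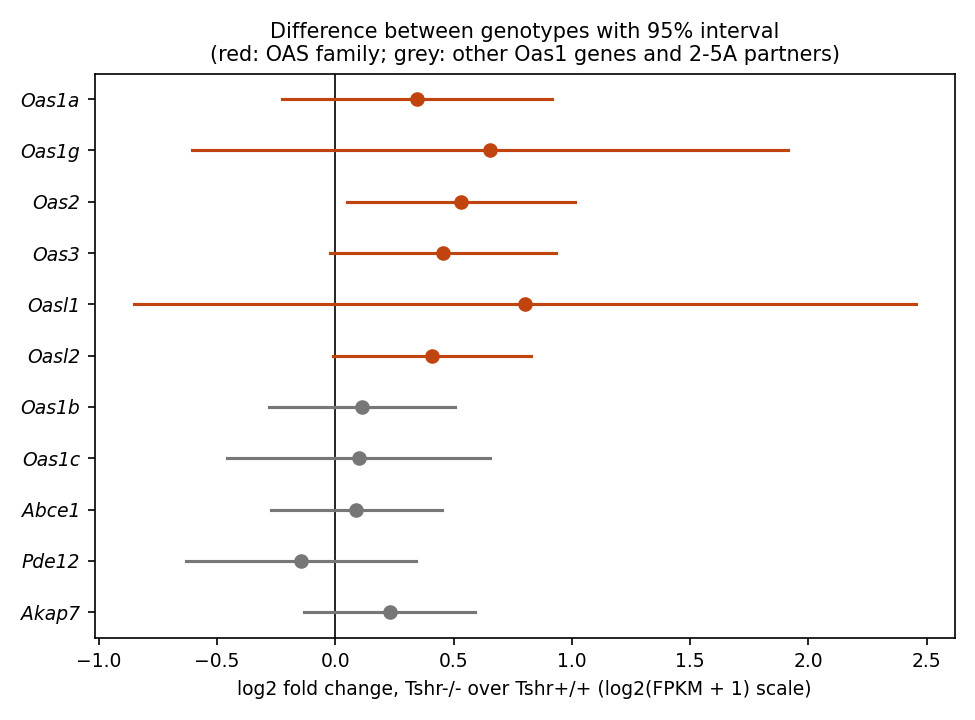
Log2 fold changes of Tshr-/- over Tshr+/+ with 95% intervals from limma (n = 3 each), for the OAS family in red and for other Oas1 genes and 3 further genes of the 2′,5′-oligoadenylate pathway in grey. All 6 family estimates lie above 0, and the interval of Oas2 alone (0.05 to 1.01, before adjustment for the number of genes) does not reach 0.

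Within genotypes, 5 of the 6 members shared an order of libraries. For Oas1a, Oas1g, Oas2, Oas3 and Oasl1, Tshr+/+ 2 was the highest Tshr+/+ library and Tshr-/- 3 the lowest Tshr-/- library, an arrangement found in 16.8% of all genes tested (27.6% had the first feature and 38.2% the second). This order is one of FPKM. Summed over all genes, FPKM was lowest in Tshr-/- 3, at 348454, against 429272 and 451384 in Tshr-/- 1 and 2. Scaled to equal totals, Oas1a and Oas2 were slightly lower in Tshr-/- 2 than in Tshr-/- 3. Over the 6 libraries the 10 pairs among these 5 genes had Pearson correlations of 0.79 to 0.98 on the log2(FPKM + 1) scale, while the 5 pairs with Oasl2 lay between -0.24 and 0.35. These are descriptions of 6 libraries, which the genes share, and carry no test. Set against the library with the same number in the other genotype, Oas2, Oas3, Oasl1 and Oasl2 were higher in Tshr-/- in 3 of 3 pairs, as were 12.2% of all genes tested. Oas1a and Oas1g were higher in 2 of 3, with Tshr-/- 2 below Tshr+/+ 2.

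The balance between members also differed among libraries of 1 genotype. The ratio of Oasl1 to Oasl2 was 2.02, 2.07 and 0.388 in Tshr-/- 1, 2 and 3, against 0.832, 2.42 and 0.344 in Tshr+/+ 1, 2 and 3. The ratio of Oas1g to Oas1a was 0.382, 0.400 and 0.208 in Tshr-/- 1, 2 and 3, against 0.190, 0.398 and 0.191 in Tshr+/+ 1, 2 and 3. Tshr-/- 1 and 2 and Tshr+/+ 2 had nearly equal values of the second ratio, and so had the other three libraries, with no value in between. By contrast the ratio of Oas2 to Oas3 lay between 0.713 and 0.885 in all 6. The summed level of the 6 genes was 239, 209 and 143 FPKM in Tshr-/- 1, 2 and 3, against 114, 184 and 116 FPKM in Tshr+/+ 1, 2 and 3.

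**Figure D4:**
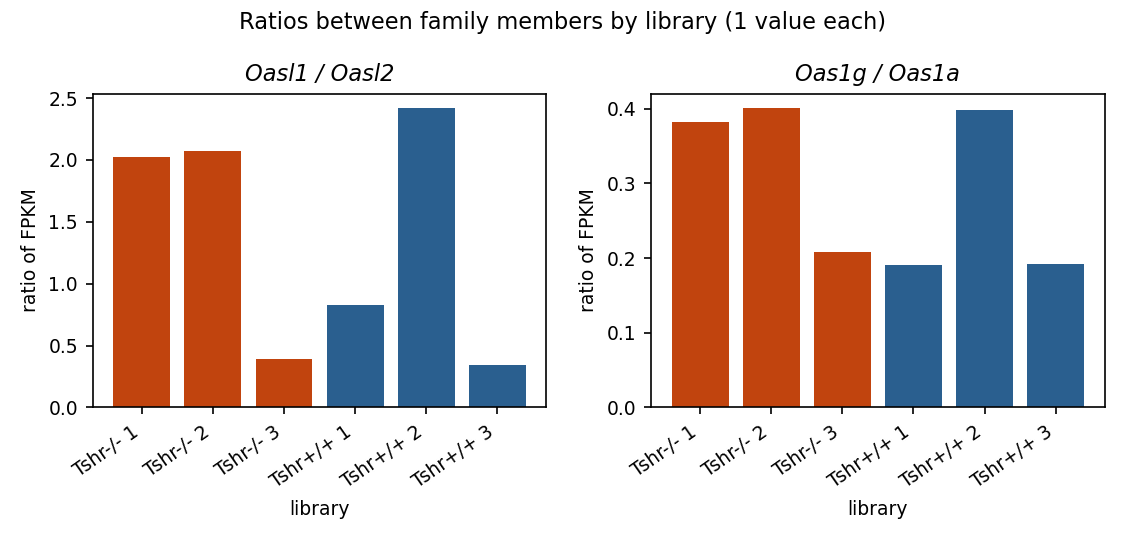
Ratios of FPKM between family members in each library (1 value per bar), Oasl1 over Oasl2 at the left and Oas1g over Oas1a at the right; Tshr-/- libraries are red and Tshr+/+ libraries blue. The ratio of Oas1g to Oas1a is near 0.4 in Tshr-/- 1, Tshr-/- 2 and Tshr+/+ 2 and near 0.2 in the other 3 libraries.

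Some of these values depend on how fragments of like sequences were assigned, a step that no source used here describes. Of the 50-base windows in the GENCODE transcripts of Oas1g, 45.7% occur unchanged in another gene, nearly all of them in Oas1a, and 57.6% of the windows of Oas1a occur elsewhere, so fragments of Oas1a and Oas1g may have been divided between them. The shares were 0.310% for Oas3, 0.138% for Oasl2 and 0% for Oas2 and Oasl1. Oasl1 overlaps the unnamed gene Gm13822 from the other strand, and whether counting used strand is unknown. The overlap covers only the first bases of Oasl1, which starts at 114923240, while Gm13822 ends at 114923277. Gm13822 had 15.1, 13.8 and 6.02 FPKM in Tshr-/- 1, 2 and 3, against 2.71, 5.93 and 2.81 FPKM in Tshr+/+ 1, 2 and 3, from 16 to 84 fragments, where Oasl1 had 347 to 1875. Oas2 overlaps Gm43068, which had between 7 and 20 fragments, against 1714 to 3537 for Oas2.

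The remaining Oas1 copies of the cluster were low or near 0, and none passed the test. Oas1b, which carries a premature stop in many laboratory strains and is annotated as a polymorphic pseudogene, had 2.71, 3.33 and 2.24 FPKM in Tshr-/- 1, 2 and 3, against 2.56, 1.94 and 2.93 FPKM in Tshr+/+ 1, 2 and 3. Oas1c had 2.33, 3.23 and 1.69 FPKM in Tshr-/- 1, 2 and 3, against 1.39, 2.41 and 2.79 FPKM in Tshr+/+ 1, 2 and 3. Tshr+/+ 2 was the lowest Tshr+/+ library for Oas1b and the middle one for Oas1c. Their log2 fold changes were 0.11 ± 0.17 and 0.10 ± 0.23 (SE). Oas1h, Oas1e and Oas1f fell below the filter with at most 0.209, 0.0396 and 0.0482 FPKM in a library, and Oas1d was listed at 0 in all 6.

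Further genes of the pathway had no common direction. Abce1, which encodes a ribosome recycling factor, averaged 5.0 ± 1.01 FPKM in the Tshr-/- libraries and 4.58 ± 0.336 FPKM in Tshr+/+ libraries (SD, n = 3 each). Pde12, a phosphodiesterase that degrades the oligoadenylates in human cells, averaged 3.91 ± 0.527 FPKM in Tshr-/- and 4.52 ± 1.34 FPKM in Tshr+/+. Akap7, whose mouse protein has the same kind of activity, averaged 1.77 ± 0.193 FPKM in Tshr-/- and 1.38 ± 0.349 FPKM in Tshr+/+. Of these 3 genes 2 had a positive and 1 a negative log2 fold change, and 0 passed limma's test.

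Interferon genes themselves were all but missing: of 20 genes of type I and type III interferons, 17 were listed at 0 in all 6 libraries, and Ifnk, Ifna13 and Ifnb1 reached at most 0.225, 0.143 and 0.0783 FPKM. Of 22 genes of interferon signalling, all tested, 0 passed limma's test in either direction, 15 had a positive and 7 a negative log2 fold change, and the median was 0.05. The most abundant was Ifngr1, a chain of the receptor for interferon gamma, with 70.1 ± 10.5 FPKM in the Tshr-/- libraries and 74.5 ± 9.58 FPKM in Tshr+/+ (SD, n = 3 each). The 3 with the smallest p were Ifngr2, the partner chain of that receptor (13.2 ± 2.17 and 17.5 ± 1.71 FPKM), Stat2, a subunit of the factor that binds the response element (9.66 ± 0.598 and 7.98 ± 0.154 FPKM), and Usp18, an interferon-induced brake on the receptor (4.66 ± 0.488 and 2.63 ± 1.85 FPKM), each with the Tshr-/- mean first. The groups of Stat2 did not overlap, with Tshr-/- above. This held for 1 of the 22 genes, against 3.23% of all genes tested. Usp18 overlapped through Tshr+/+ 3, which had 4.77 FPKM, against 1.47 and 1.64 FPKM in Tshr+/+ 1 and 2.

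Irf9 and Irf7 were among the genes most like the family. Likeness was the Pearson correlation over the 6 libraries with the mean pattern of the 6 members. Oasl2 itself had a correlation of only 0.20 with that mean, against 0.88 (Oasl1) to 0.995 (Oas3) for the other members. Likeness to the family is thus chiefly likeness to the members other than Oasl2. Candidates had to average at least 5 FPKM and carry a symbol other than a Gm number, Rik or accession-like name (5671 candidates). Gm13822, left out by its symbol, had a correlation of 0.98. The 8 highest were Hbb-bt (a haemoglobin gene, 0.99), Samd9l (an interferon-induced antiviral gene, 0.98), Kmt2d (a histone methyltransferase, 0.97), Irf9 (the DNA-binding partner of Stat2, 0.97), Bola2 (0.96), Sp100 (a nuclear body protein, 0.96), Irf7 (0.96) and Plcb2 (a phospholipase, 0.95). Among all genes tested, 2.14% had a correlation over 0.8. Irf7, a master regulator of interferon genes, had 42.3, 43.3 and 27.7 FPKM in Tshr-/- 1, 2 and 3, against 24.5, 36.8 and 25.2 FPKM in Tshr+/+ 1, 2 and 3. It thus showed the order of the members other than Oasl2, with Tshr+/+ 2 above Tshr-/- 3. Irf9 had 24.0, 22.7 and 17.3 FPKM in Tshr-/- 1, 2 and 3, against 16.1, 20.9 and 17.0 FPKM in Tshr+/+ 1, 2 and 3.

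**Figure D5:**
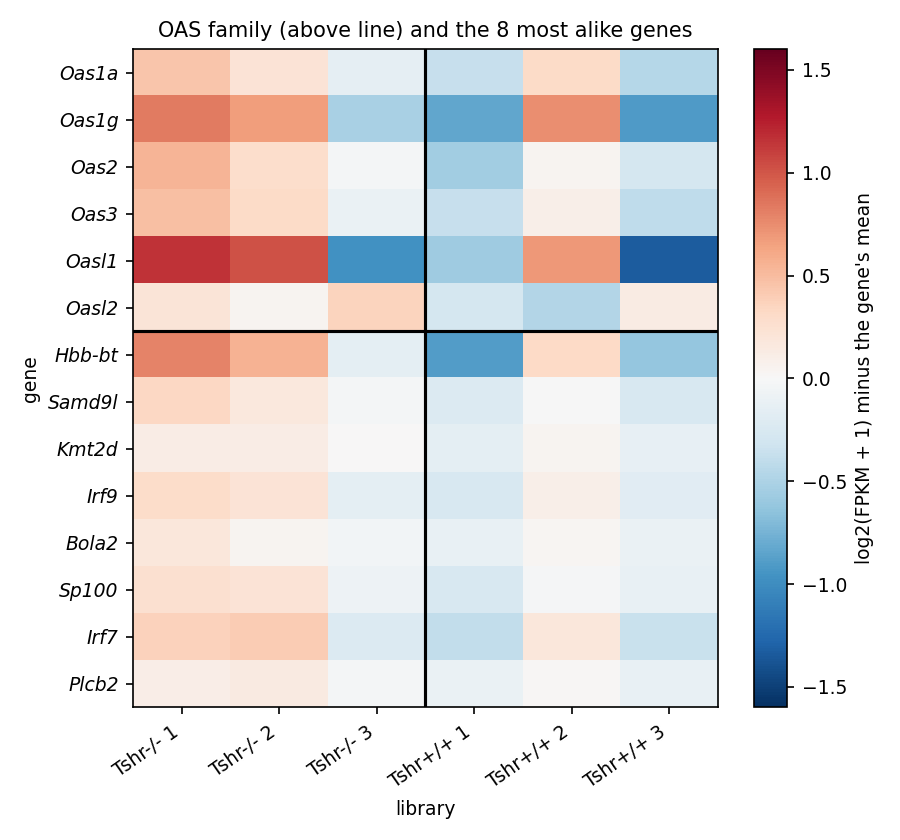
Deviation of log2(FPKM + 1) from the mean of each gene over the 6 libraries. The 6 OAS genes are above the horizontal line and the 8 candidate genes of most like pattern below it. Tshr-/- libraries are left of the vertical line and Tshr+/+ libraries right of it. Oas1a, Oas1g, Oas2, Oas3 and Oasl1 are high in Tshr-/- 1 and 2 and above their mean in Tshr+/+ 2, while Oasl2 is lowest there.

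Summed markers of some other cells moved with or against the family's mean pattern over the same libraries. The lists shown had the strongest correlations with that pattern: 0.95 (erythroid), -0.96 (B and plasma cell), -0.95 (resident macrophage) and 0.93 (plasmacytoid dendritic cell). Marker lists left out lay between 0.07 (stromal and osteoblast) and 0.66 (pan-leukocyte). Mature neutrophils had 0.55, neutrophil precursors 0.32 and monocytes 0.26. The summed level of 7 erythroid genes was 160, 127 and 92.5 FPKM in Tshr-/- 1, 2 and 3, against 61.2, 131 and 51.8 FPKM in Tshr+/+ 1, 2 and 3. The 4 haemoglobin genes passed the filter, and all 4 showed the order of the members other than Oasl2 within both genotypes. The defining markers Alas2 and Klf1 lay under 1 FPKM in every library, with Klf1 at 0 in Tshr+/+ 1. Genes of B and plasma cells ran the other way, with a sum over 7 genes of 17.9, 27.4 and 33.6 FPKM in Tshr-/- 1, 2 and 3, against 49.5, 29.8 and 59.0 FPKM in Tshr+/+ 1, 2 and 3, and Ms4a1 and Pax5 lay under 1 FPKM throughout, with Pax5 at 0 in Tshr-/- 2. Most of that sum was Jchain, with 11.4, 22.2 and 22.3 FPKM in Tshr-/- 1, 2 and 3, against 39.9, 21.2 and 44.9 FPKM in Tshr+/+ 1, 2 and 3. All 4 tested genes of the list had negative log2 fold changes, but that of Cd79b was only -0.08. The summed level of 8 genes of resident macrophages also ran against the family's mean pattern. Sums were 85.8 to 134 FPKM in Tshr-/- and 105 to 137 FPKM in Tshr+/+, with 0 members at 0. The summed level of 7 genes of plasmacytoid dendritic cells, which make much interferon, was 37.5, 33.3 and 29.1 FPKM in Tshr-/- 1, 2 and 3, against 22.5, 30.6 and 28.0 FPKM in Tshr+/+ 1, 2 and 3. Most of that sum was Bst2, itself raised by interferon and the 1 gene of the list past the filter; Siglech stayed at or under 0.411 FPKM, Klk1 was at 0 in Tshr-/- 1 and 2 and Tshr+/+ 2, and Pacsin1 at 0 in Tshr+/+ 2. The part of these cells in the family's pattern was not tested, and in bulk RNA fewer cells of a type cannot be told apart from less RNA per cell.

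Most other sensors and interferon-stimulated genes had positive log2 fold changes, and none passed limma's test. Of 14 tested genes that bind or sense double-stranded RNA, 10 had a positive log2 fold change, the median was 0.24 and 0 passed, while the Tshr-/- values lay wholly above the Tshr+/+ values in 6, against 3.23% of all genes tested. The 3 with the smallest p were Adar, an RNA-editing enzyme (12.2 ± 0.226 FPKM in the Tshr-/- libraries against 8.93 ± 1.05 FPKM in the Tshr+/+ ones, SD, n = 3 each), Zbp1, a sensor of Z-form nucleic acid (15.2 ± 2.06 and 9.58 ± 2.36 FPKM, in the same order), and Ddx58, which encodes RIG-I (12.3 ± 1.08 and 9.15 ± 1.13 FPKM). The most abundant was Zc3hav1, the zinc finger antiviral protein, with 39.7 ± 6.04 FPKM in Tshr-/- and 44.2 ± 12.9 FPKM in Tshr+/+. Of 46 tested genes in a wider list of interferon-stimulated genes, 44 had a positive log2 fold change, the median was 0.38, 0 passed and 14 had Tshr-/- wholly above Tshr+/+, against 3.23% of all genes tested. Nlrc5, Slfn5 and Gbp7 had the smallest p there, with log2 fold changes of 0.61 ± 0.12, 0.80 ± 0.17 and 0.59 ± 0.14 (SE). Ifitm3, which blocks viral entry, was the most abundant, with a log2 fold change of 0.01 ± 0.15 (SE).

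The patterns of Oasl2 and of the other members both recurred among those 46 genes. A correlation over 0.8 with Oasl2 was found for 19 of them (41.3%), against 6.37% of all genes tested, and one over 0.8 with the mean pattern of the other 5 members for 10 (21.7%), against 2.54%. Of the 46, Gbp2, an interferon-induced GTPase, stood nearest to Oasl2 with a correlation of 0.99. It had 9.51, 7.40 and 12.2 FPKM in Tshr-/- 1, 2 and 3, against 5.6, 4.34 and 8.94 FPKM in Tshr+/+ 1, 2 and 3, so that the libraries numbered 3 were again the highest of their genotype. Mx2, the next nearest at 0.97, is an interferon-induced antiviral GTPase and had 1.39, 1.11 and 1.37 FPKM in Tshr-/- 1, 2 and 3, against 0.812, 0.718 and 1.33 FPKM in Tshr+/+ 1, 2 and 3. Gbp2 and Mx2 were picked after their values were seen. Over all candidates averaging at least 5 FPKM, Slc28a2 stood nearest to Oasl2 (0.99), ahead of Gbp2. Pum2, Mcmbp, Gpcpd1, Supt16, Alcam and Ube4a, none of them in the list of interferon-stimulated genes, followed with 0.97 to 0.98.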

How the data were processed

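RNA was sequenced from CD11b-positive bone marrow cells of 3 Tshr-/- and 3 Tshr+/+ mice. The authors deposited FPKM values per gene with gene lengths; the submitters' processing notes name GRCm38 and mm10 as builds; aligner, counting tool and strand use: not given in the sources used here. Columns headed HO were read as Tshr-/-, since WT is the other genotype label, and numbers as those of the titles. FPKM times gene length gave whole multiples of 1 step in 100% of values within 0.01, and so whole fragments; each library's FPKM denominator was 0.939 to 1.12 times the sum of fragments, so values carry a scaling between libraries. Gene positions equalled GENCODE M21 for 53462 of 54409 matched identifiers. No library was a copy of another (smallest chi-square per degree of freedom 13.1).

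The 10913 genes that reached 1 FPKM in 3 or more of the 6 libraries entered a limma fit (version 3.58.1, R 4.3.3) of log2(FPKM + 1) by genotype, with a variance trend, two-sided. Such fold changes understate those of low genes. The test was checked on simulated data. Those libraries were drawn independently with a fixed dispersion, so the check cannot show how the test behaves with the spread of the real libraries. Spread between the 3 libraries of a genotype may be biological or technical. Same-numbered libraries deviated together from their group means (correlations of 0.24, 0.26 and 0.47), although Tshr-/- 1 was nearer to Tshr+/+ 2 (0.34); the labels name no shared litter or day. Adjustment for this pairing changed no call.

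Members and gene lists were chosen with earlier results of these data known. Named by rule were Tshr, all members, the other Oas1 genes, 3 further pathway genes, from each further list the 3 genes of smallest p and the most abundant, and the 8 genes most like the family. Some listed genes are not reported here. Correlations over libraries, motif matches and window sharing are descriptions.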

Additional observations from a re-analysis of the deposited data

How the results depend on the processing

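Each of the 6 members stayed above the threshold of limma's adjusted p in every alternative run, the lowest being 0.0697 for Oasl2 with array weights. All log2 fold changes stayed positive under other pseudocounts (0.1 and 0.5 FPKM), filters, scalings, robust moderation, voom on whole fragments and the loss of any single library. Without Tshr-/- 1 and 2, the libraries in which Tshr was still present, 2 genes turned: Oas1g to -0.19 and Oasl1 to -0.56, and the median of the members was 0.077, against 0.49 with all libraries; that fit has 1 Tshr-/- library, which is assumed to vary like the others. Leaving out each library in turn gave medians between 0.37 and 0.65. Over all genes, 0 passed in the reported fit and 317 had an unadjusted p under 0.05; voom also called 0. Array weights called 24 genes and leaving out both libraries numbered 3 also called 24, of which 3 were shared, and single-library omissions called between 0 and 2 (2 without Tshr-/- 3). No OAS gene was among them. The cause of these changes was not tested. With the replicate number as a block, 0 genes passed, the SE of Oasl1 was 0.30 in place of 0.70, and no call changed. A count model on whole fragments was listed and not run, since the deposited values are FPKM. With 201 to 677 fragments, Oas1g is the member of least depth.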

Other observations

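Between Oasl2 and Oas1a, on chromosome 5 from 114896936 to 120907521, 43 other genes passed the filter. Their correlations with the family's mean pattern had a median of -0.10, and 3 of the 43 (6.98%) exceeded 0.8, against 2.14% of all genes tested. These 3, named after their values were seen, were Gm13822, which overlaps Oasl1, the short unnamed gene Gm24407, and Gcn1l1, which encodes a sensor of stalled ribosomes. Gm24407 was at 0 in Tshr+/+ 1 and reached at most 2.2 FPKM (Tshr-/- 1), so its correlation rests on values near the floor. Gcn1l1 had 5.22, 5.77 and 2.98 FPKM in libraries labelled Tshr-/- 1, 2 and 3, against 2.54, 5.23 and 2.39 FPKM in those labelled Tshr+/+ 1, 2 and 3. As in Oas1g, the library Tshr+/+ 2 stood with Tshr-/- 1 and 2. The median log2 fold change of the 43 genes was -0.02.

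Among the interferon-stimulated genes, Ifi44l, picked after its values were seen, had a correlation of -0.79 to the family's mean pattern. Its correlation was 0.05 with Oasl2 and -0.82 with the mean pattern of the other members. Ifi44l was listed at 0 in Tshr-/- 1 and 2 and had 6.56 FPKM in Tshr-/- 3, against 2.39, 2.5 and 6.37 FPKM in Tshr+/+ 1, 2 and 3.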
